A study of Homo sapiens with 4 samples.

Results

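The RNA exosome is the main machine that degrades and trims RNA from the 3′ end in human cells, and this report describes the genes of its core. Its 10 core subunit genes, EXOSC1 to EXOSC10, were taken as the rows of the deposited table whose name is one of these symbols. All 10 were found among its 22361 rows, and all 10 were among the 14601 rows with enough signal to be tested. The rows follow from the symbols, but the gene family was selected on measured values, the differences in expression between shARIEL and shGFP control libraries that earlier results of this comparison had shown. The subunits' differences between groups are therefore a description, and no support is drawn from how many of them passed a threshold.

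The shARIEL group is Jurkat cells infected with lentivirus that expresses a hairpin targeting ARIEL, a noncoding transcript of leukaemic T cells (2 libraries). The shGFP control group is Jurkat cells infected in the same way with a hairpin targeting GFP, which the cells lack (2 libraries). Both groups went through puromycin selection at 0.7 µg/ml for at least 36 h and were collected 72 h after infection. Jurkat is an established human T-ALL line, so the groups model 1 line. The number and sequence of the hairpins are not stated in those sources that were read. The labels number the replicates but do not say that they were separate cultures, so errors and p-values reflect just how far these libraries differ, which may be technical.

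Expression is given as regularised log (rlog) values in log2 units. The transform draws noisy values towards the mean of the gene, so a difference in rlog understates the change. Over the 10 subunits the rlog difference was between 0.54 and 0.59 times the log2 fold change of the authors' deposited table. Those fold changes may be drawn in as well, which was not tested. Without counts in the table, the depth of each library is unknown. In bulk RNA, fewer cells of a type and less RNA per cell cannot be told apart. The 10 T-lineage markers checked lay between 12.15 and 16.77 rlog in all 4 libraries. In shARIEL libraries 2 were called higher, CD7 (rlog difference 0.23) and CD247 (0.15). Called lower were 4: CD5 (-0.32), CD3G (-0.30), CD28 (-0.26) and CD2 (-0.15). CD3D, CD3E, LCK and ZAP70 were not called. Over all tested genes 22.1% were called higher and 22.4% lower. Of 3 myeloid markers CSF1R was listed at 0, LYZ lay between 0.26 and 0.27, and CD14 had 3.84 and 3.83 in shARIEL libraries, against 3.87 and 3.86 in shGFP control libraries, and was not called. Of 2 epithelial markers EPCAM was listed at 0, and KRT8 had 4.75 and 4.71 in shARIEL libraries, against 4.67 and 4.65 in shGFP control libraries, and was called higher at this low level (0.07 ± 0.03, SE; limma, adjusted p = 0.0294). The summed linear level was 16.4 to 16.5 in shARIEL libraries and 16.7 to 16.8 in shGFP control libraries for the myeloid list, and 27.1 to 27.8 in shARIEL libraries and 26.0 to 26.5 in shGFP control libraries for the epithelial list. The B-cell marker MS4A1 was listed at 0, but CD79A, another B-cell marker, had 11.23 and 11.25 rlog in shARIEL libraries, against 10.91 and 10.99 in shGFP control libraries. CD79A was called higher, by 0.29 ± 0.04 (SE, limma, adjusted p = 8.48e-11). The part of all these markers in the results was not tested. ARIEL is, from background knowledge of the study and not from the table, the locus XLOC_005968, which had 10.58 and 10.55 rlog in shARIEL libraries, against 12.02 and 11.91 in shGFP control libraries.

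As background, the exosome core is a barrel. A ring of subunits resembling the bacterial enzyme RNase PH is built from EXOSC4 to EXOSC9, and the cap of S1 and KH domain proteins EXOSC1, EXOSC2 and EXOSC3 sits on top and holds the RNA entrance. In humans this barrel has lost its own catalysis, and RNA is cut by attached nucleases: EXOSC10, found mainly in the nucleus and nucleolus, and the DIS3 family proteins. In the nucleus the complex trims ribosomal and small nucleolar RNA precursors and removes unstable transcripts, and in the cytoplasm it takes part in mRNA turnover.

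Most of the core was higher in shARIEL libraries, by small amounts, and the increase was unequal between subunits. EXOSC4 stood highest at 0.31 ± 0.04 (difference ± SE, rlog), followed by EXOSC5, EXOSC6 and EXOSC1 near 0.2, while EXOSC8, EXOSC3 and EXOSC9 lay between -0.06 and 0.02. With limma fitted over all tested genes and an adjusted p under 0.05, 7 subunits were called higher, 0 lower and 3 were not called. Over all tested genes 44.4% were called, 22.1% higher and 22.4% lower, and nothing is read from the 7 for the reason given above. At an unadjusted p under 0.05 again 0 subunits were lower, but the share of all tested genes at that threshold was not counted. The authors' deposited table also has 7 higher and 0 lower at its adjusted p under 0.05. Over all of its genes with an adjusted p, 20.1% were higher and 19.3% lower. The median rlog difference of the 10 was 0.10, against 0.00 over all tested genes. The groups did not overlap for 8 subunits, and did not overlap for 70.7% of all tested genes.

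**Figure D1:**
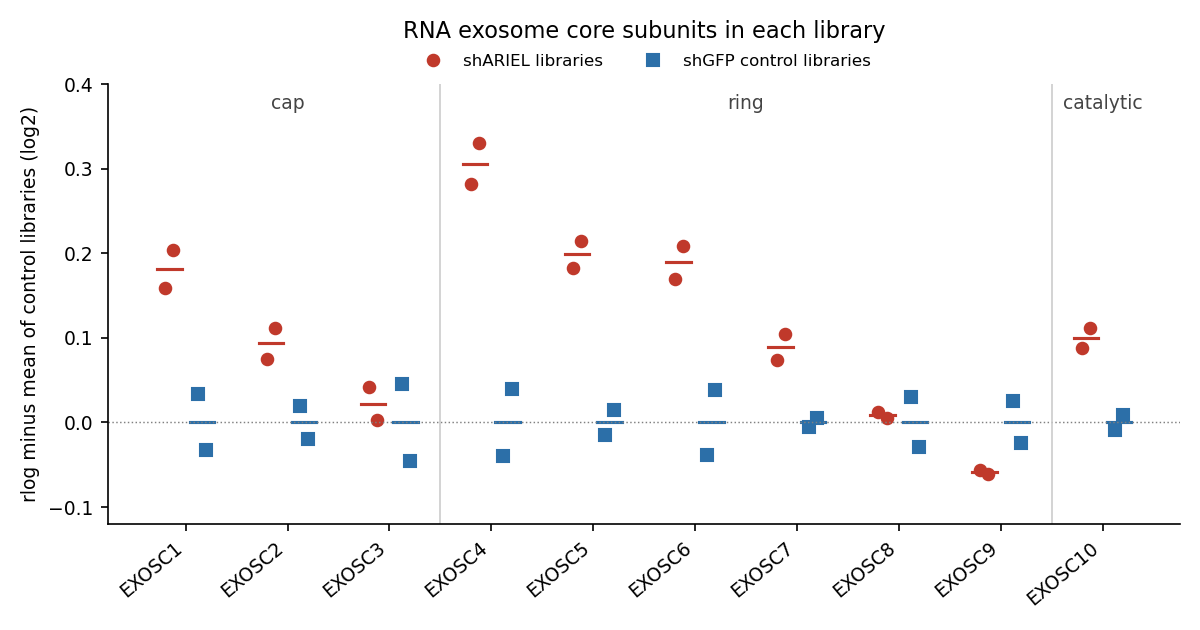
The rlog value of each subunit in each library, minus the mean of that subunit's 2 shGFP control libraries (log2 scale). Red circles are shARIEL libraries, blue squares shGFP control libraries and bars group means. EXOSC4 stands highest at 0.31 and EXOSC9 is the only subunit whose shARIEL libraries both lie below its shGFP control libraries.

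Among the cap subunits, EXOSC1, on chromosome 10, showed the largest difference. This Csl4-like cap protein had 12.36 and 12.41 rlog in shARIEL libraries, against 12.24 and 12.17 in shGFP control libraries. Both shARIEL libraries lay above both control libraries, and the difference was 0.18 ± 0.04 (SE). In the authors' deposited table EXOSC1 was 1.26-fold higher. EXOSC2, the Rrp4-like cap protein on chromosome 9, had 13.74 and 13.77 rlog in shARIEL libraries, against 13.68 and 13.64 in shGFP control libraries. The groups again did not overlap, with a difference of 0.09 ± 0.03 (SE), which was no longer called without shARIEL replicate 2 (0.07) or without shGFP control replicate 2 (0.07).

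EXOSC3, the Rrp40-like cap protein, also on chromosome 9, is known for mutations that cause a form of pontocerebellar hypoplasia. It had 12.74 and 12.70 rlog in shARIEL libraries, against 12.74 and 12.65 in shGFP control libraries. The groups overlapped, and the difference of 0.02 ± 0.03 (SE) was not called and turned to -0.02 without shGFP control replicate 2. The control replicates of EXOSC3 differed by 0.09, the widest gap between replicates of any subunit.

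The ring is described by its known pairs. Its subunits pair as EXOSC4 with EXOSC9, EXOSC5 with EXOSC8 and EXOSC6 with EXOSC7, and in each pair the first is of the kind named for yeast Rrp41 and the second of the kind named for yeast Rrp42. The Rrp41-like subunits had the 3 largest ring differences and the Rrp42-like subunits the 3 smallest, an arrangement noticed after the values were seen.

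EXOSC4, on chromosome 8, had 12.13 and 12.18 rlog in shARIEL libraries, against 11.81 and 11.89 in shGFP control libraries. The lowest shARIEL value was 0.24 above the highest control value, the widest such gap in the core. The difference of 0.31 ± 0.04 (SE) lay at the 98.6 percentile of all tested genes, and the authors' deposited table has EXOSC4 1.48-fold higher (log2 fold change 0.56 ± 0.08, SE). Its partner EXOSC9, on chromosome 4 and first described as the autoantigen PM/Scl-75, went the other way in sign. EXOSC9 had 14.22 and 14.22 rlog in shARIEL libraries, against 14.30 and 14.25 in shGFP control libraries, a difference of -0.06 ± 0.03 (SE) that was not called. It was -0.03 without shGFP control replicate 1, -0.08 without shGFP control replicate 2 and -0.04 after quantile normalization. With replicate number added to the fit as a block, EXOSC9 was called lower (limma, adjusted p = 0.0364).

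EXOSC5, on chromosome 19, had 12.07 and 12.10 rlog in shARIEL libraries, against 11.87 and 11.90 in shGFP control libraries. Its groups did not overlap, and the difference was 0.20 ± 0.04 (SE), 1.29-fold in the authors' deposited table. Its partner EXOSC8, on chromosome 13, had 12.71 and 12.70 rlog in shARIEL libraries, against 12.73 and 12.67 in shGFP control libraries. There the shARIEL values fell between the control values, and the difference was 0.01 ± 0.03 (SE), or -0.02 without shGFP control replicate 2.

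EXOSC6, the Mtr3-like subunit on chromosome 16, had 12.72 and 12.76 rlog in shARIEL libraries, against 12.51 and 12.59 in shGFP control libraries. The difference was 0.19 ± 0.03 (SE), 1.27-fold in the authors' deposited table. Its partner EXOSC7, on chromosome 3, had 12.75 and 12.78 rlog in shARIEL libraries, against 12.67 and 12.68 in shGFP control libraries. The groups did not overlap, but the difference of 0.09 ± 0.03 (SE) lost its call without shARIEL replicate 1 (0.10), without shARIEL replicate 2 (0.07) and without shGFP control replicate 1 (0.08).

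The same values were also written as ratios within each library, which restate the differences above and add no support. The level per kb of transcript of EXOSC4 over EXOSC9 was -1.64 and -1.58 (log2) in shARIEL libraries, against -2.04 and -1.91 in shGFP control libraries. That ratio was 0.36 higher in the shARIEL group. The ratio of EXOSC5 over EXOSC8 was -0.29 and -0.25 in shARIEL libraries, against -0.51 and -0.42 in shGFP control libraries, 0.19 higher. For EXOSC6 over EXOSC7 it was -2.32 and -2.31 in shARIEL libraries, against -2.45 and -2.38 in shGFP control libraries, 0.10 higher.

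EXOSC10, the nuclear exonuclease named for yeast Rrp6 and once called PM/Scl-100, lies on chromosome 1. It had 13.94 and 13.97 rlog in shARIEL libraries, against 13.85 and 13.87 in shGFP control libraries. Its replicates lay close together, and the groups were apart by 0.08. The difference was 0.10 ± 0.03 (SE), 1.13-fold in the authors' deposited table, and was not called without shARIEL replicate 2 (0.09). The 4 subunits with the largest differences kept their sign without that library. EXOSC4 was then at 0.28, EXOSC5 at 0.18, EXOSC6 at 0.17 and EXOSC1 at 0.16.

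The differences were set against the spread between replicates. Over the 10 subunits the replicates differed by a median of 0.03 in shARIEL libraries and 0.05 in shGFP control libraries, and the groups by a median of 0.10. For 8 of 10 subunits the difference between groups exceeded both replicate differences, as it did for 61.3% of all tested genes. The SE of 0.03 to 0.04 rests on a spread shared by genes of like level. With each gene's own variance, in an ordinary t-test, 0 subunits were called, but 0 of all 14601 tested genes were called either. At an unadjusted p under 0.05 in that test, 6 subunits passed, as did 4561 of the 14601 genes.

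Per transcript length, the subunits covered a range of 3.75 on the log2 scale. This scale is rlog minus log2 of the mean length in kb of the gene's protein-coding transcripts in GENCODE 29, and the values are levels averaged over the 4 libraries. EXOSC9 was highest at 14.03 ± 0.04 (SD over 4 libraries), 0.93 above EXOSC2 at 13.10 ± 0.06. EXOSC8 (12.92), EXOSC1 (12.89), EXOSC7 (12.65), EXOSC5 (12.55), EXOSC10 (12.44), EXOSC3 (12.34) and EXOSC4 (12.24 ± 0.18) followed in steps of at most 0.25. EXOSC6 was lowest at 10.28 ± 0.11.

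EXOSC9, EXOSC2, EXOSC7, EXOSC5, EXOSC10 and EXOSC6 held the same rank in every library. EXOSC1 had 12.96 and 13.01 in shARIEL libraries, above EXOSC8 at 12.92 and 12.92. In shGFP control libraries EXOSC1 had 12.84 and 12.77, below EXOSC8 at 12.94 and 12.88. EXOSC4 had 12.36 and 12.41 in shARIEL libraries, next to EXOSC3 at 12.37 and 12.34. In shGFP control libraries EXOSC4 had 12.04 and 12.12, below EXOSC3 at 12.38 and 12.29. EXOSC6 has a single protein-coding transcript of 5153 bases, most of it a 3′ UTR of 4304 bases, which weighs on its place. With the longest transcript of each gene in place of the mean, 4 of 10 subunits kept their rank, among them EXOSC9 and EXOSC2 at the top and EXOSC6 at the bottom. EXOSC5, at rank 6 by the mean length, was at rank 9 by the longest transcript.

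**Figure D2:**
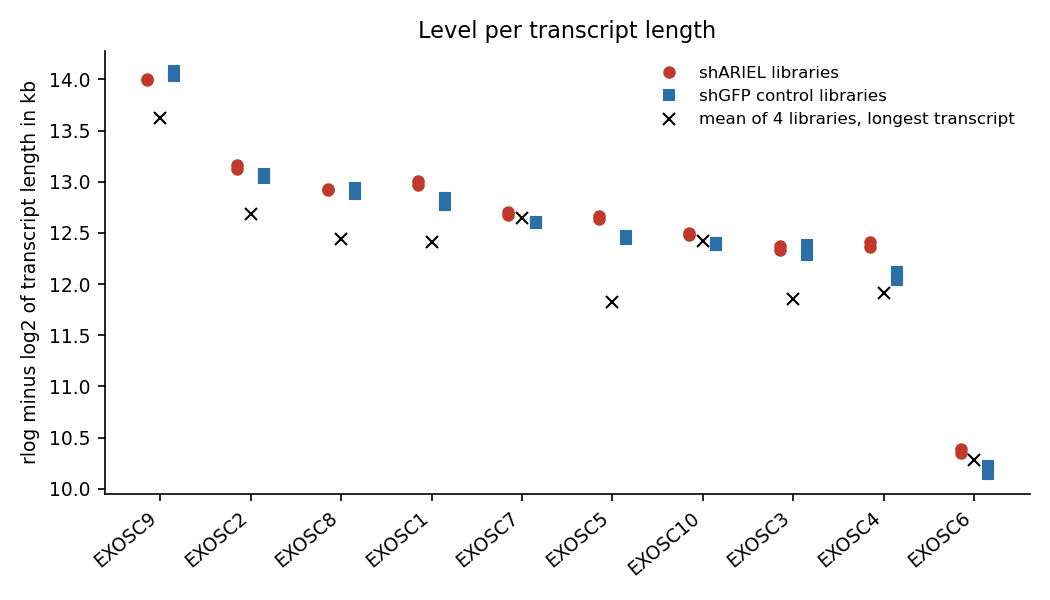
Level of each subunit per transcript length (rlog minus log2 of length in kb), for shARIEL libraries (red circles) and shGFP control libraries (blue squares), with the mean of 4 libraries on the longest transcript as crosses. EXOSC9 lies highest at 14.03 and EXOSC6 lowest at 10.28.

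Transcript GC content moved with these differences. The longest transcripts of the subunits ranged from 41.3% GC in EXOSC9 to 61.5% in EXOSC5, with 57.1% in EXOSC4. Spearman's rho between GC content and rlog difference was 0.73 over the 10 subunits, which share the same 4 libraries, and 0.41 over 12591 tested genes with a protein-coding transcript, as a description. After removal of the trend described next, rho was 0.60 over the subunits and -0.03 over all these genes. Once each library's dependence on GC content and length had been taken out, the difference was 0.24 for EXOSC4, 0.23 for EXOSC6 and 0.16 for EXOSC1. It was 0.11 for EXOSC5, 0.05 for EXOSC7, 0.04 for EXOSC3 and -0.04 for EXOSC9, each over 1.5 times away from the value with the trend. The same 7 subunits were called higher and 0 lower, against 29.1% higher and 24.1% lower over all genes in that fit, with EXOSC7 only just inside the threshold (limma, adjusted p = 0.0499). The ratios of the ring pairs were then higher by 0.27 for EXOSC4 over EXOSC9, 0.10 for EXOSC5 over EXOSC8 and 0.18 for EXOSC6 over EXOSC7.

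**Figure D3:**
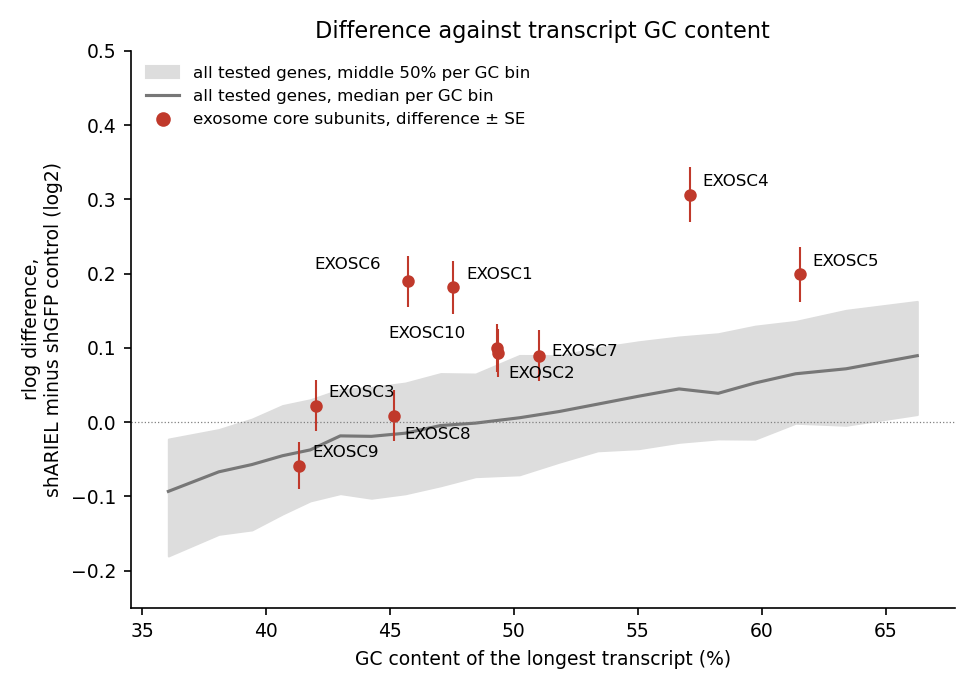
The rlog difference (shARIEL minus shGFP control) of each subunit with its SE against the GC content of its longest transcript, over the median (line) and middle 50% (band) of all tested genes in 20 bins of GC content. EXOSC1, EXOSC4, EXOSC5 and EXOSC6 lie above the band at their GC content, and EXOSC2 and EXOSC10 lie above it by less. EXOSC7 lies at its upper edge, and EXOSC3, EXOSC8 and EXOSC9 lie within it.

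Promoter sequence was examined as a description, since the subunits were chosen with their differences known. RefSeq windows (GRCh38.p14) from 250 bases before to 50 bases after the start, 300 bases in all, were matched by symbol for 8 subunits, all but EXOSC1 and EXOSC4. The windows of 2 Rrp41-like ring subunits and of EXOSC9 are shown, on the strand of the gene. Capitals mark the E-box CACGTG, which MYC and related factors bind, the NRF1 core GCGCATG and the YY1 core AAGATGG on either strand.
EXOSC5 chr19:41397310-41397609, minus strand: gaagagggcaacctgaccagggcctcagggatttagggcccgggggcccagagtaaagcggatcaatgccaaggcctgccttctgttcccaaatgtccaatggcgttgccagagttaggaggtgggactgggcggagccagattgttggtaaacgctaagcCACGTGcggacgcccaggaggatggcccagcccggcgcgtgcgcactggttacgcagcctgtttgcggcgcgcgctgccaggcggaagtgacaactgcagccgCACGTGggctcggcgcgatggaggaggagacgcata
EXOSC6 chr16:70251891-70252190, minus strand: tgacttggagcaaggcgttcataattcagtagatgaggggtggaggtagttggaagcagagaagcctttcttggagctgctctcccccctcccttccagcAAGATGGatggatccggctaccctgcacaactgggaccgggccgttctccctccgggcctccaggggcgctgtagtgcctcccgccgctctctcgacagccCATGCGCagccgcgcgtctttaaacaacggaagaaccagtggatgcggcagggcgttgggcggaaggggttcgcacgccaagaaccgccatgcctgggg
EXOSC9 chr4:121801073-121801372, plus strand: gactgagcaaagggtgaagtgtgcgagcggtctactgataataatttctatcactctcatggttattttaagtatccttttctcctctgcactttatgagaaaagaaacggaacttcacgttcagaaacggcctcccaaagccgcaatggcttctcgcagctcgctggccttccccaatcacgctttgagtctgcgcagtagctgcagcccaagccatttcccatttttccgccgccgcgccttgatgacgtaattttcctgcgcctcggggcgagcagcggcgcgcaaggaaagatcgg

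The EXOSC5 window holds the E-box 2 times, at positions -89 and 14 relative to the start, and no other subunit window holds it, against 7.43% of all 27305 promoter windows. The NRF1 core occurs in EXOSC6 and EXOSC10 (4.67% of all windows) and the YY1 core in EXOSC2, EXOSC6 and EXOSC8 (6.06%). The GC box CCGCCC, not marked above, occurs in 7 of the 8 windows, all but EXOSC9, and in 44.6% of all windows. The shares over all windows take no account of GC content, which in these 8 ran from 52.3% in EXOSC9 to 76% in EXOSC7. The exact ETS-type word CCGGAAG (10.7% of all windows) and the GATA word AGATAAG (2.63%) occur in none of the 8. Shorter or variant ETS sites were not searched, and the letters GGAA, the core of such sites, occur in each window shown above. Each word was searched on both strands, and a match is a description, not a binding site.

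The longest annotated 3′ UTRs of the subunits ran between 54 bases in EXOSC4 and 4304 bases in EXOSC6. The median of the longest annotated 3′ UTR was 281 bases over the 10 subunits and 1316 bases over 12531 tested genes. Among 4 words of 7 bases searched on the transcript strand, EXOSC6 was the only subunit to carry any. It carries the word GATGACA, the word TGTTGTC and the word GTTGTCA, but not the word AGATGAC. Of the genes searched, 16.4% held at least 1 of the overlapping words with GATGAC in common and 17.9% held at least 1 of the pair with TTGTC. These words came from earlier results on the same libraries, so their presence supports nothing here. The sites in the 3′ UTR of EXOSC6 (GENCODE 29, GRCh38, minus strand) are shown with the word in capitals, the second holding both overlapping words.
EXOSC6 chr16:70248285-70248309, 3′ UTR: catacacatGATGACAgttcaaccc
EXOSC6 chr16:70246778-70246798, 3′ UTR end: ctatttcatTGTTGTCAgaaa

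Genes that touch the subunits in the annotation were checked, since libraries were strand-specific but use of strand in counting is not stated. CCNA2, which encodes cyclin A2 and shares 254 exon bases with EXOSC9 on the opposite strand (5.39% of the exon bases of EXOSC9), had 14.73 and 14.70 rlog in shARIEL libraries, against 14.74 and 14.69 in shGFP control libraries. SUPT20H shares 302 exon bases with EXOSC8 on the opposite strand and differed by 0.03 ± 0.03 (SE). CLEC3B shares 604 exon bases with EXOSC7 on the same strand, and its rlog lay between 3.34 and 3.36 in all libraries. Reads over the bases that CLEC3B shares with EXOSC7 cannot be told apart by strand. For CCNA2 and SUPT20H this depends on whether strand was used in counting. An antisense gene, AL109811.1, covers 36.6% of the exon bases of EXOSC10, and AC109322.1 covers 19.5% of those of EXOSC4, and neither was analysed here.

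The 4 tested genes that start within 1000 bases of a subunit on the other strand did not pass the test. BCKDHA, a subunit of the branched-chain keto acid dehydrogenase, starts 19 bases from EXOSC5 and had 9.46 and 9.58 rlog in shARIEL libraries, against 9.43 and 9.49 in shGFP control libraries, a difference of 0.06 ± 0.05 (SE; limma, adjusted p = 0.299). ZDHHC16, a palmitoyltransferase gene, starts 114 bases from EXOSC1 and differed by 0.01 ± 0.04 (adjusted p = 0.859). DCAF10, beside EXOSC3, differed by -0.04 ± 0.04 (adjusted p = 0.392), and ZDHHC3, beside EXOSC7, by -0.07 ± 0.03 (adjusted p = 0.0666).

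The nucleases and cofactors that work with the core were not in the set, and were tested in the same limma fit. The partner lists were also chosen with earlier results of these data known, so their counts and p-values are a description too. Of 3 DIS3 family genes 2 were lower and 0 higher (0 also at an unadjusted p under 0.05 and in the authors' deposited table), with a median of -0.08, where 22.4% of all tested genes were lower. DIS3L, the cytoplasmic nuclease of the exosome, fell to 12.88 and 12.88 rlog in shARIEL libraries, against 13.06 and 13.01 in shGFP control libraries (-0.15 ± 0.03, SE; limma, adjusted p = 2.73e-05). DIS3, the nuclear one, had 13.48 and 13.35 in shARIEL libraries, against 13.53 and 13.46 in shGFP control libraries, a difference of -0.08 ± 0.03 (adjusted p = 0.0340). Its call was lost in the authors' deposited table (adjusted p = 0.123), without shARIEL replicate 2 (-0.02) and without shGFP control replicate 1 (-0.05). The difference was -0.14 without shARIEL replicate 1 and 0.01 without the GC and length trend. DIS3L2, which acts without the exosome, differed by 0.01 ± 0.04 and was not called.

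Among 16 nuclear cofactors, which bring RNA to the core or help it enter, 1 was higher, 6 were lower and 9 were not called, with a median of -0.02, where 22.1% of all tested genes were higher and 22.4% lower. ZFC3H1, the scaffold of the connection to polyadenylated nuclear RNA, fell to 12.59 and 12.47 rlog in shARIEL libraries, against 12.68 and 12.72 in shGFP control libraries (-0.17 ± 0.03, SE; limma, adjusted p = 7.60e-06; -0.10 with the trend removed). Its call was lost without shARIEL replicate 2 (-0.11). ZCCHC8, of the nuclear exosome targeting complex, fell to 12.76 and 12.78 in shARIEL libraries, against 12.92 and 12.87 in shGFP control libraries (-0.12 ± 0.03; adjusted p = 0.00133; -0.07 with the trend removed). Its partner RBM7 had 10.95 and 10.95 in shARIEL libraries, against 10.99 and 10.94 in shGFP control libraries, and was called higher, at 0.10, only with the trend removed (adjusted p = 0.0143). C1D, which associates with EXOSC10, differed by -0.16 ± 0.04 (adjusted p = 0.00109), and by -0.02 with the trend removed, where it was not called (adjusted p = 0.733). The C1D call was also lost without shARIEL replicate 2 (-0.13) and without shGFP control replicate 1 (-0.08).

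The cap-binding complex, which links capped nuclear RNA to these cofactors, split. NCBP2, its small subunit, rose to 14.10 and 14.13 rlog in shARIEL libraries, against 14.05 and 13.96 in shGFP control libraries (0.11 ± 0.03, SE; limma, adjusted p = 0.00131). NCBP1, its large subunit, fell to 13.98 and 13.96 in shARIEL libraries, against 14.10 and 14.06 in shGFP control libraries (-0.11 ± 0.03; adjusted p = 0.00161; -0.05 with the trend removed). NCBP2 lost its call without shARIEL replicate 2 (0.10) and without shGFP control replicate 2 (0.07). Over the whole list, 4 genes were higher and 6 lower with the GC and length trend taken out, where 29.1% of all genes were higher and 24.1% lower. These 6 were not the same genes as before. C1D dropped out, and SRRT, at -0.05 and not called with the trend, was called lower at -0.09 without it. PABPN1 was called lower in both fits, at -0.10 with the trend and -0.12 without it. SKIV2L2, the MTR4 helicase, differed by -0.02 ± 0.03 and was not called, but was called higher at 0.05 with the trend removed (adjusted p = 0.0328).

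The SKI complex feeds mRNA to the cytoplasmic exosome, and its subunits moved in both directions. SKIV2L, its helicase, rose to 13.58 and 13.62 rlog in shARIEL libraries, against 13.37 and 13.43 in shGFP control libraries (0.20 ± 0.03, SE; limma, adjusted p = 1.44e-08). WDR61, a scaffold it shares with the PAF1 complex, fell to 13.07 and 13.07 in shARIEL libraries, against 13.23 and 13.19 in shGFP control libraries (-0.14 ± 0.03; adjusted p = 0.000111). TTC37, the large scaffold, differed by -0.04 ± 0.03 and was not called, but was called higher at 0.05 with the trend removed (adjusted p = 0.0236). HBS1L, whose short isoform bridges SKI and exosome, rose by 0.13 ± 0.03 (adjusted p = 0.000350; 0.22 with the trend removed). In the list of 5, 2 were higher, 1 was lower, where 22.1% of all tested genes were higher and 22.4% lower, and the median was -0.04, which turned to 0.05 with the trend removed.

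**Figure D4:**
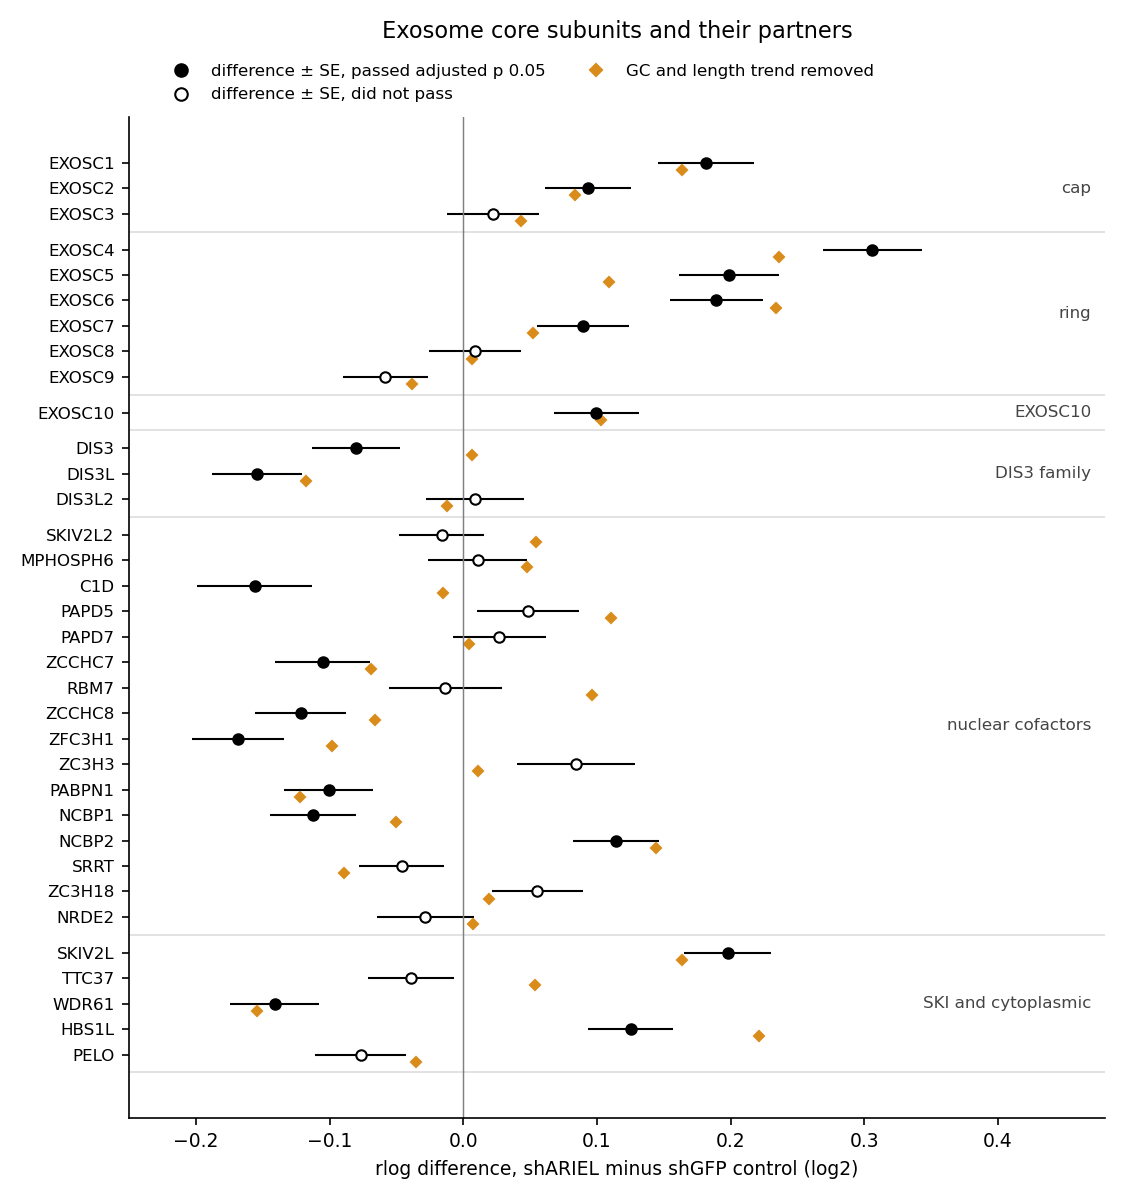
The rlog difference (shARIEL minus shGFP control) with its SE for the core subunits and for the DIS3 family, nuclear cofactors and SKI and other cytoplasmic cofactors. Filled circles passed an adjusted p of 0.05, open circles did not, and diamonds give the difference without the GC and length trend. Core differences lie between -0.06 for EXOSC9 and 0.31 for EXOSC4. The nuclear cofactors have 6 filled circles left of 0 and 1, NCBP2, right of it, and DIS3, filled at -0.08, has its diamond at 0.01.

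The other routes of mRNA decay were counted in the same way. Of 18 tested genes for decapping and decay from the 5′ end, 3 were higher and 6 lower, with a median of -0.01, where 44.4% of all tested genes were called, 22.1% higher and 22.4% lower. LSM6 of the Lsm ring, which caps the 3′ end of mRNA bound for decapping, rose to 11.63 and 11.65 rlog in shARIEL libraries, against 11.26 and 11.25 in shGFP control libraries (0.38 ± 0.04, SE; limma, adjusted p = 3.52e-20). LSM7 of the same ring rose by 0.20 ± 0.03 and LSM1 by 0.13 ± 0.04, while LSM5 differed by -0.21 ± 0.03. The decapping enzyme gene DCP2 and its helicase partner DDX6 each differed by -0.16 ± 0.03. With the trend removed the differences were 0.10 for LSM7, -0.12 for LSM5, -0.08 for DDX6 and -0.05 for DCP2, all still called. LSM1 lost its call without shARIEL replicate 2 (0.09). LSM8 was not analysed here.

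Of 18 deadenylation genes, whose products shorten the poly(A) tail before either route, 3 were higher, 2 lower and 13 not called, with a median of 0.01, against the same shares over all tested genes. RQCD1, the CNOT9 subunit of the CCR4-NOT complex, fell to 13.61 and 13.63 rlog in shARIEL libraries, against 14.07 and 14.08 in shGFP control libraries (-0.45 ± 0.03, SE; limma, adjusted p = 5.81e-43). CNOT7, a deadenylase of the same complex, rose to 13.70 and 13.61 in shARIEL libraries, against 13.46 and 13.39 in shGFP control libraries (0.24 ± 0.03; adjusted p = 7.48e-12; 0.36 with the trend removed). The antiproliferative adaptors BTG2 (0.32 ± 0.04) and TOB1 (0.28 ± 0.05) also rose, and the deadenylase CNOT6L differed by -0.17 ± 0.03, by -0.05 with the trend removed and by -0.11 without shARIEL replicate 2. With the trend removed 7 of the 18 were higher, where 29.1% of all genes were. Of 16 noncoding RNAs that the exosome trims or degrades, 0 had a row matched by name, and they were not analysed here.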

How the data were processed

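Per the labels' protocols, strand-specific libraries with ERCC spike-in RNA, added by cell number, gave paired reads of 100 bases. Without roles, hg19, DESeq2 1.12.4, STAR 2.5.2a and HTSeq 0.6.1 are listed per the submitters' processing notes. The deposited table gives, per the file headers, rlog (log2) per library and gene, then log2 fold change, standard error, test score, p-value and adjusted p from the authors. The table holds 0 spike-in rows and no counts, so no count test was used. How the rlog values were scaled, by spike-ins or by library size, was not established here. A difference may therefore be in RNA per cell or in share of the RNA.

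The rlog values were fitted with limma 3.58.1 (R 4.3.3; trend on level, no pseudocount) over the 14601 rows whose mean rlog reached log2 of 10, with Benjamini-Hochberg adjustment at 0.05. The prior degrees of freedom were infinite, so genes of a level share 1 spread. Transcript GC content, length, 3′ UTRs and neighbours came from GENCODE 29 (GRCh38) by gene ID; the trend was removed with splines of 5 degrees of freedom. The subunits and lists were chosen with earlier results of these data known. All subunits were named, and neighbours starting within 1000 bases. Per partner list, up to 3 genes higher and 3 lower with the smallest adjusted p were named. DIS3L2, RBM7, NCBP1, SKIV2L2, TTC37, SRRT and PABPN1 were added after their values were seen. Alternatives were other filters, scalings and variance models, each library left out, a replicate block and the deposited adjusted p. Some cell type markers are not reported here.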

Additional observations from a re-analysis of the deposited data

How the results depend on the processing

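The count of subunits called higher was 7 under every alternative except where 1 library was left out (4 to 6, lowest without shARIEL replicate 2) and where each gene kept its own variance (0), and 0 subunits were lower except under the replicate block (1, EXOSC9). EXOSC3 (-0.023 to 0.068 with 1 library left out) and EXOSC8 (-0.021 to 0.038), neither called, changed sign without shGFP control replicate 2. Genes called in all numbered 6488, 4225 to 6188 with 1 library left out, 0 with own variances (4561 at an unadjusted p under 0.05) and 7426 with the replicate block. The labels' numbers are not stated to pair libraries; same-numbered deviations correlated at 0.198 across genes. Own variances also left 0 calls in every partner list. With 1 library left out, lower calls ranged from 1 to 2 in the DIS3 family and 2 to 5 in nuclear cofactors, and higher calls from 0 to 1 in nuclear cofactors. The DIS3 family had 1 lower call with no filter, no trend on level, the GC and length trend removed, median centring, quantile normalization and the deposited adjusted p, since DIS3 dropped out; DIS3 was 0.0068 with the trend removed. Removing that trend gave 4 higher nuclear cofactors and 7 higher deadenylation genes. The replicate block gave 2 lower SKI and cytoplasmic cofactors (2 also by the deposited adjusted p) and 4 lower deadenylation genes. On the longest transcript 4 of 10 subunits kept their rank by level. The cause of these changes was not tested. Unknown depth gives no counting error.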
